A study of Mus musculus with 9 samples.

Results

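Macrophages are tissue phagocytes of the myeloid lineage, and 34 genes that mark them or carry out their work were followed in the mouse uterus. The genes were chosen by symbol from a written list, and all 34 were found among the 18094 genes of the deposited count table and passed the filter on low counts, together with 15186 genes in all. The RNA came from whole uteri of 9 females aged 13 weeks, which formed 3 groups of 3. The first group (tamoxifen+primidone) was fed tamoxifen at 1 mg/kg on days 1 to 5 of life and received primidone at 2 mg/kg per day by intraperitoneal injection for 3 weeks from week 10. The second group (tamoxifen) was given the same neonatal tamoxifen and later injections of vehicle. The third group (control) was fed the solvent of peanut oil, lecithin and condensed milk without tamoxifen and was later injected with vehicle. Tamoxifen is a selective estrogen receptor modulator, and feeding it to newborns is used as a model of adenomyosis, in which endometrium grows into the uterine muscle. Primidone is an anticonvulsant. The labels give neither the stage of the estrous cycle nor a mouse strain, and they do not say that any cells were sorted.

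Resident macrophages of most tissues depend on the growth factor Csf1 and its receptor Csf1r, and the transcription factor PU.1, encoded by Spi1, is required for the myeloid lineage. They take up antibody-coated particles through Fc receptors, which signal through short adaptor proteins, and dying cells and lipoproteins through scavenger receptors. They are a main source of the 3 chains of complement C1q. In the uterus they lie in the endometrial stroma and between the muscle bundles and vary in number over the cycle.

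The promoters of some members, all of them with a match, are shown for a pair of myeloid motifs. They are examples and do not stand for the 34 genes. GAGGAAG is a core that PU.1 and other ETS factors bind, and TTGCNNAA is a C/EBP type motif, in which N is any base. Both strands were searched over the 250 bases before the start of each gene in a RefSeq table of the build GRCm38.p6, in which 24 of the 34 genes were found. Matches of the 2 motifs were counted separately, also where they could overlap. GAGGAAG was present in 9 of the 24 (37.5%), against 12% of 27025 genes in the table and 10.6% of its 32851 promoters. TTGCNNAA was present in 3 of the 24 (12.5%), against 10.8% of genes and 9.56% of promoters. A match is a description of letters in this window and does not show that a factor binds there. The promoters of Cd68, Itgam, Mrc1 and C1qc follow, 5′ to 3′ on the strand of the gene, with each match in capitals (CTTCCTC is GAGGAAG read on the other strand).

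Cd68 (chr11:69666171-69666420, minus strand): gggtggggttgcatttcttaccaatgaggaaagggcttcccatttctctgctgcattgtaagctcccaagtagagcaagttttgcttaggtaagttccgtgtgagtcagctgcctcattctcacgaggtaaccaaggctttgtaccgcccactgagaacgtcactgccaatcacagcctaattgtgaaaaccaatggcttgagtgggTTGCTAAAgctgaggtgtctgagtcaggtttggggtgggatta
Itgam (chr7:128062390-128062639, plus strand): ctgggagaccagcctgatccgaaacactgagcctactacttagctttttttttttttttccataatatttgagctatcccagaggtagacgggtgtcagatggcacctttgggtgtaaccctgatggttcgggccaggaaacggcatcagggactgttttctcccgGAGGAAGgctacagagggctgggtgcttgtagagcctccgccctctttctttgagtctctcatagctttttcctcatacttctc
Mrc1 (chr2:14229164-14229413, plus strand): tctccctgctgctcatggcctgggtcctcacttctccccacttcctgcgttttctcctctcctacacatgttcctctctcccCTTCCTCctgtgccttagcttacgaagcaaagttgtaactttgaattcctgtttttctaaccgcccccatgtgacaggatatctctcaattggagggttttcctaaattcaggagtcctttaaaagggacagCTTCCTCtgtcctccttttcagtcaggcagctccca
C1qc (chr4:136892915-136893164, minus strand): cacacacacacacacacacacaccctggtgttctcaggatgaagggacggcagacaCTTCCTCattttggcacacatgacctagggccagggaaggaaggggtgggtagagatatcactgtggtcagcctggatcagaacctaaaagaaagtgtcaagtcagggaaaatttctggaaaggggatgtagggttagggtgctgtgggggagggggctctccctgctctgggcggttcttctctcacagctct

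The match in Cd68 begins 43 bases before the start of the gene, that in Itgam 84 bases, those in Mrc1 168 and 36 bases, and that in C1qc 194 bases. The promoter of C1qb, which neighbours C1qc on chromosome 4, held neither motif, and that of Ms4a7 held neither as well. The other members with GAGGAAG were Laptm5, Fcgr1, Fcgr3, Trem2, Marco and Retnla, and the other members with TTGCNNAA were Fcgr3 and Retnla.

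The 34 genes differed widely in level. Levels are compared between genes on the authors' FPKM scale, which is scaled for gene length. Averaged over the 9 libraries, Lyz2 (lysozyme of myeloid cells) was at 386 FPKM, Cd14 (co-receptor for bacterial lipopolysaccharide) at 271 FPKM and Ctss (cathepsin S, a lysosomal protease) at 148 FPKM. The C1q chains C1qa, C1qb and C1qc followed at 134, 118 and 117 FPKM. The general markers Cd68 and Adgre1 were at 70.3 and 15.6 FPKM. The lowest levels were those of the scavenger receptor Cd163 at 0.859 FPKM, Msr1 at 0.532 FPKM and Marco at 0.218 FPKM. All 34 genes thus had reads in these uteri, and markers of abundant macrophage products stood far above scavenger receptors such as Marco.

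**Figure D1:**
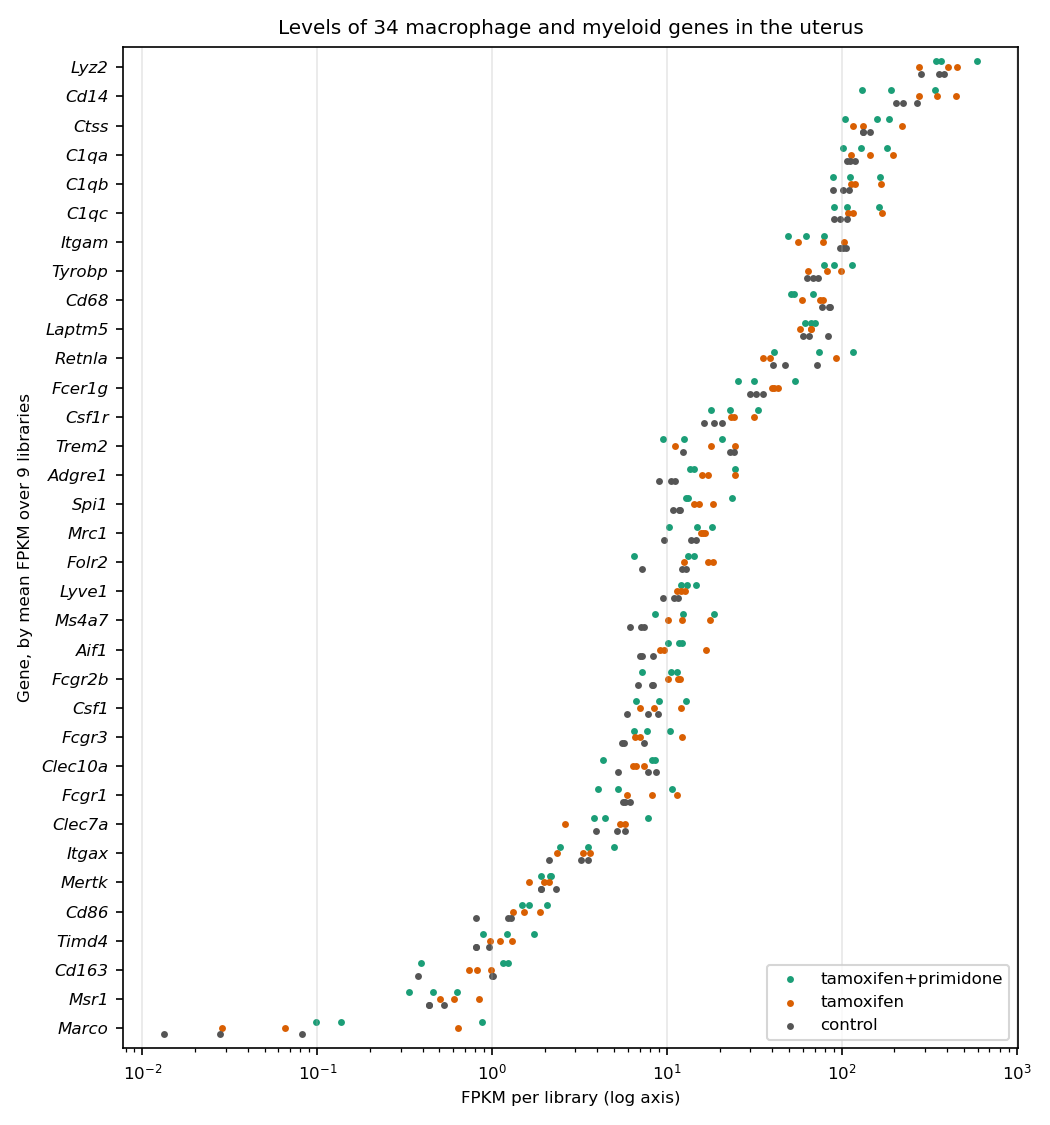
Level of each of the 34 genes in each library, on a log axis in FPKM, with a point per library coloured by group. The genes span from Lyz2, at a mean of 386 FPKM over the 9 libraries, to Marco, at 0.218 FPKM. For many of them, but not all, the 3 groups overlap.

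Within a gene, levels are given below as CPM, the counts scaled to a common library size with TMM factors. Library totals ran from 36393120 to 39958443 counts, and the 34 genes together took 2018 to 3391 CPM. In bulk tissue, fewer cells of a type and less RNA per cell cannot be told apart, and this holds for every difference below. A difference was called where the adjusted p of edgeR's quasi-likelihood test, with Benjamini-Hochberg adjustment over all 15186 genes, was below 0.05.

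Single libraries stood apart across many of the 34 genes. Tamoxifen+primidone replicate 2 was the highest of its group for 27 of the 34 genes and the lowest for 0. Tamoxifen replicate 1 was the highest of its group for 18 genes, and tamoxifen replicate 3 the lowest for 22. Control replicate 2 was the lowest of its group for 19 genes. The same tamoxifen+primidone library was the highest of its group for 8 of 8 pan-leukocyte genes (such as Ptprc, which encodes CD45) and for 12 of 12 genes of lysosomal proteases and cofactors. The part of leukocyte content in the differences below was not tested.

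**Figure D2:**
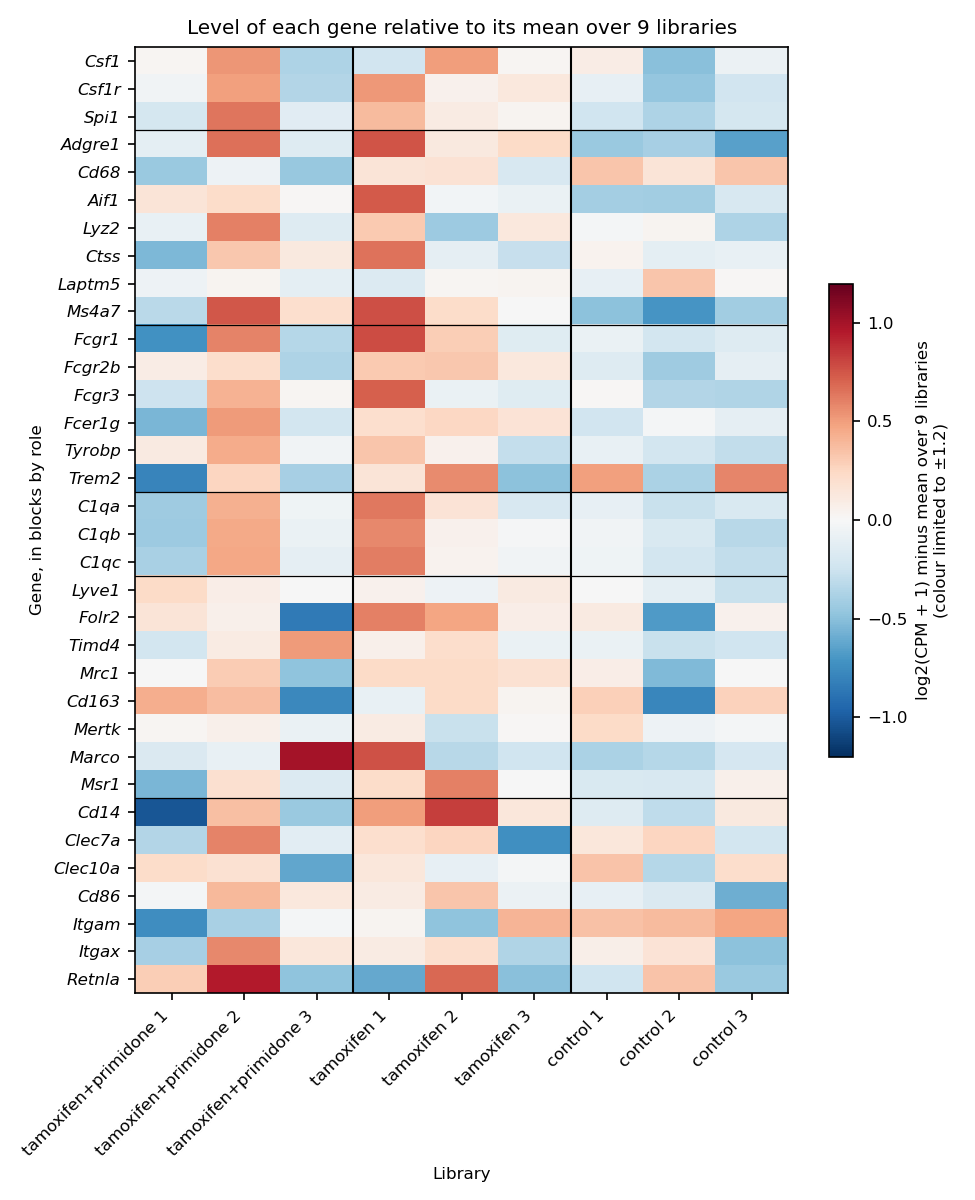
Level of each of the 34 genes in each library relative to its own mean over the 9 libraries, on the log2(CPM + 1) scale, with red above and blue below the mean and colour limited to ±1.2. Genes are in blocks by role, and tamoxifen+primidone replicate 2, the highest of its group for 27 genes, forms a mostly red column between 2 paler or bluer ones.

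Tamoxifen against control addressed how the uterus of the model differed from that of mice given the solvent. No member passed the test, against 1.53% of all genes tested. The log2 difference was nevertheless positive for 27 of the 34 genes, with a median of 0.36 beside 0.0002 over all genes tested. Without tamoxifen replicate 1 it was positive for 25 genes, with a median of 0.20. For 13 genes the 3 tamoxifen libraries all lay above the 3 control libraries, and for 0 genes below. That is 38.2% of the members, against 12.7% of all genes that lay above and 26.1% that lay apart in either direction. At an unadjusted p below 0.05 there were 5 members (14.7%), against 17.8% of all genes, so that share did not stand above the background. DESeq2 called 2 of the 34, Adgre1 and Ms4a7, both higher, against 7.11% of all genes with an adjusted p, so that count did not stand above the background either. Limma on log2(FPKM + 1) called 0, against 1.53% of all genes.

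Tamoxifen+primidone against tamoxifen addressed what primidone changed in the model. Again 0 members passed, against 0.0132% of all genes, and DESeq2 and limma also called 0, against 3.78% and 0.00671% of all genes. The log2 difference was negative for 23 members and positive for 11, with a median of −0.14 beside 0.02 over all genes. For 0 members did the libraries of these groups lie apart, against 16.6% of all genes (8.08% higher and 8.55% lower). Only Cd68 and Cd14 had an unadjusted p below 0.05, which is 5.88% of the members against 13.8% of all genes. Without tamoxifen replicate 1 the difference was positive for 20 members and the median was 0.03, so its direction rests on that library. Without tamoxifen+primidone replicate 2 the difference was positive for 4 members and the median was −0.36, again with 0 members called. The median was −0.02 without tamoxifen+primidone replicate 1, −0.07 without replicate 3 of that group and −0.24 without tamoxifen replicate 3.

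Tamoxifen+primidone against control gave the only call in edgeR among the 34 genes. Cd68 was lower, which is 1 of 34 members (2.94%), against 5.35% of all genes called in either direction, 2.14% called higher and 3.21% called lower. That split over all genes was 325 higher and 487 lower in edgeR, but 626 higher and 321 lower in limma on log2(FPKM + 1), which differs in test, scaling and filter. There the log2 difference of Cd68 was −0.52 (limma adjusted p = 0.0513), with 0 members called against 6.36% of all genes. The log2 difference was positive for 25 members, with a median of 0.22 beside 0.01 over all genes. Without tamoxifen+primidone replicate 2 the difference was positive for 13 members and the median was −0.06, so its direction rests on that library. Without tamoxifen+primidone replicate 1 it was 0.35. For 6 members the tamoxifen+primidone libraries all lay above the control libraries (Adgre1, Aif1, Ms4a7, Tyrobp, Marco and Cd86) and for 2 all below (Cd68 and Itgam). These 8 are 23.5% of the members, against 29.1% of all genes. Marco was apart by few reads, with 7 counts in its lowest tamoxifen+primidone library and 6 in its highest control library. At an unadjusted p below 0.05 there were 9 members, Marco among them, or 26.5%, against 23.2% of all genes. When the 3 groups were tested together for any difference (F test), 0 members passed and 6 had an unadjusted p below 0.05 (17.6%), against 3.84% and 23.4% of all genes. DESeq2 called 4 members in tamoxifen+primidone against control, Adgre1 and Ms4a7 as higher and Cd68 and Itgam as lower, against 12% of all genes, and 4 in its test of any difference, against 15% of all genes. Both counts are near the background. The comparisons share libraries, so they are not independent of each other.

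**Figure D3:**
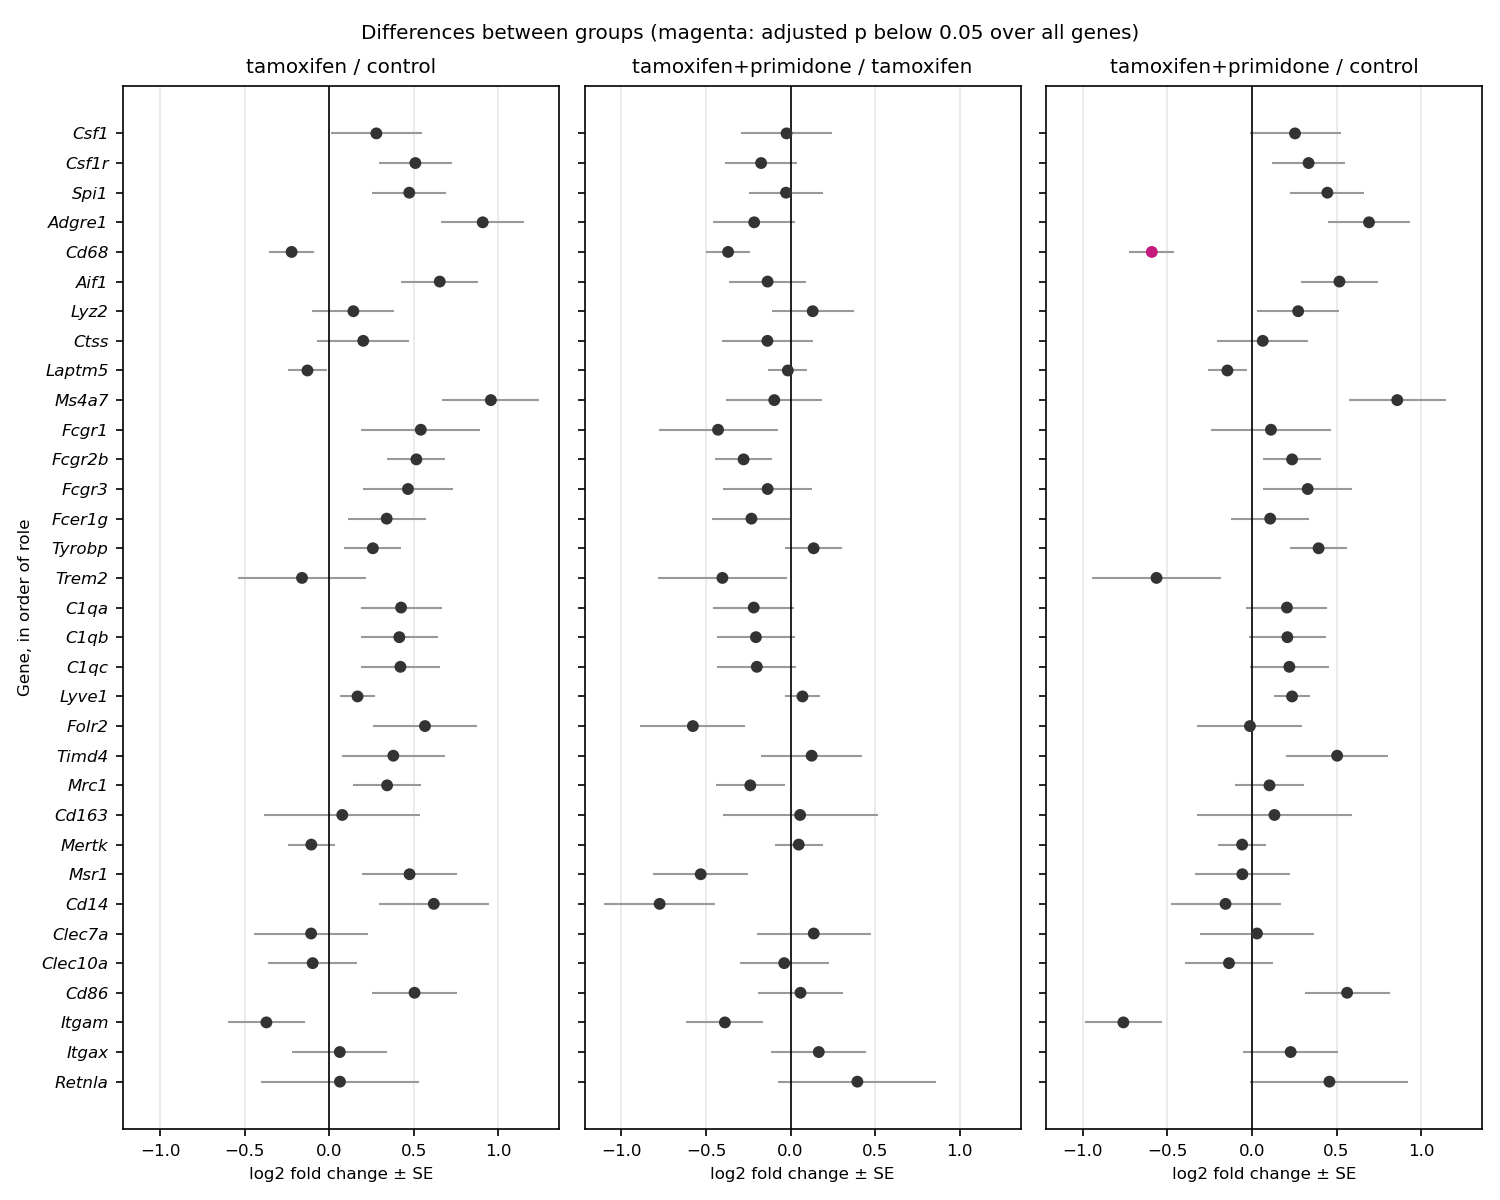
Log2 fold change of 33 of the 34 genes with its standard error (horizontal lines) in the 3 comparisons, with genes in order of role from top to bottom. Marco is left out because of its few reads. Cd68 in tamoxifen+primidone over control is the only point that passed (magenta), while most points of tamoxifen over control lie right of 0.

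No difference in the ligand Csf1 or its receptor Csf1r passed the test. Csf1 was at 39.4, 56.3 and 29.8 CPM in tamoxifen+primidone uteri, 32.9, 55.4 and 39.4 CPM in tamoxifen uteri and 41.4, 27.1 and 36.7 CPM in control uteri. The groups overlapped, and the log2 difference of tamoxifen from control was 0.28 ± 0.27 (SE, edgeR adjusted p = 0.64). Csf1r had 84.8, 124 and 68.2 CPM in tamoxifen+primidone uteri, 126, 90.9 and 95.4 CPM in tamoxifen uteri and 81.9, 63.1 and 74.4 CPM in control uteri. Every tamoxifen library lay above every control library, while the tamoxifen+primidone libraries overlapped with both groups. The log2 difference of Csf1r between tamoxifen and control was 0.51 ± 0.22 (SE, edgeR adjusted p = 0.259). Spi1, which encodes PU.1, averaged 25.6 ± 9.37 CPM in tamoxifen+primidone, 26.1 ± 3.58 CPM in tamoxifen and 18.8 ± 1.18 CPM in control uteri (SD, n = 3 each), and its adjusted p in edgeR was 0.296 for tamoxifen against control. Counts of Csf1r are uncertain to the extent that they include reads of Hmgxb3, which overlaps it on the opposite strand and is also in the count table, since it is not known whether the counting used strand.

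Among the general macrophage genes, Adgre1 and Cd68 lay on opposite sides of the control level in tamoxifen+primidone uteri. Adgre1 encodes F4/80, the standard surface marker of mouse macrophages. It had 45.6, 79.0 and 44.4 CPM in tamoxifen+primidone uteri, 84.2, 53.7 and 58.3 CPM in tamoxifen uteri and 36, 37.4 and 31.2 CPM in control uteri. All 6 libraries from tamoxifen-fed mice lay above all 3 control libraries. The log2 difference was 0.91 ± 0.24 for tamoxifen against control (edgeR adjusted p = 0.102) and 0.69 ± 0.24 for tamoxifen+primidone against control (edgeR adjusted p = 0.129). Results were recomputed in 18 settings, which were the main fit, alternatives of the processing and fits that each left out a library. A fit with fewer libraries has less power, so a call lost there is not a matter of processing alone. Over these settings the first of these adjusted p-values ran from 0.00422 to 0.271 and passed in 3, so the difference in Adgre1 stands near the threshold.

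Cd68 encodes a glycoprotein of late endosomes and lysosomes that is widely used to stain macrophages. Its level was 63.2, 82.4 and 62.6 CPM in tamoxifen+primidone uteri, 96.3, 97.4 and 75.4 CPM in tamoxifen uteri and 109, 96.2 and 109 CPM in control uteri. The tamoxifen+primidone libraries all lay below the control libraries, and the tamoxifen libraries overlapped with both. Cd68 fell in tamoxifen+primidone relative to control by 0.59 ± 0.13 on the log2 scale, to 0.663 of the control level (edgeR adjusted p = 0.0343). For tamoxifen+primidone against tamoxifen the log2 difference was −0.37 ± 0.13 (edgeR adjusted p = 0.26), and for tamoxifen against control −0.22 ± 0.13 (edgeR adjusted p = 0.414). The call of Cd68 held in 10 of 18 settings, with log2 differences from −0.73 to −0.52 and adjusted p from 0.00227 to 0.119. It was lost in edgeR without tamoxifen+primidone replicate 1 (adjusted p = 0.0795) or 3 (0.0872) and without control replicate 1 (0.119), 2 (0.0585) or 3 (0.106).

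Ms4a7, a tetraspan membrane protein of macrophages, had the largest positive difference from control among members with more than a few reads. Ms4a7 was at 14.1, 30.8 and 20.8 CPM in tamoxifen+primidone uteri, 31.2, 21.1 and 17.8 CPM in tamoxifen uteri and 12.4, 10.6 and 13.1 CPM in control uteri. As for Adgre1, no control library reached the level of any library from a tamoxifen-fed mouse. The log2 difference was 0.96 ± 0.29 for tamoxifen against control (edgeR adjusted p = 0.13) and 0.86 ± 0.29 for tamoxifen+primidone against control (edgeR adjusted p = 0.114). Aif1 encodes IBA1, an actin-binding protein of macrophages. It had 11.4, 12 and 10.3 CPM in tamoxifen+primidone uteri, 17.6, 9.87 and 9.56 CPM in tamoxifen uteri and 7.39, 7.36 and 8.77 CPM in control uteri. The control libraries were again the 3 lowest, and the log2 difference of tamoxifen from control was 0.65 ± 0.23 (edgeR adjusted p = 0.171).

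Lyz2 and Ctss, abundant products of macrophages, overlapped between the groups. Lyz2 had 374, 606 and 358 CPM in tamoxifen+primidone uteri, 494, 293 and 435 CPM in tamoxifen uteri and 392, 407 and 309 CPM in control uteri. The lowest library of all 9 was a tamoxifen library and the highest a tamoxifen+primidone library, with an edgeR adjusted p of 0.814 for tamoxifen against control. Ctss had 143, 261 and 227 CPM in tamoxifen+primidone uteri, 329, 193 and 172 CPM in tamoxifen uteri and 215, 193 and 197 CPM in control uteri. The 3 groups overlapped for Ctss, and its adjusted p in edgeR was 0.754 for tamoxifen against control. Laptm5, a lysosomal membrane protein of blood cells, averaged 155 ± 8.4 CPM in tamoxifen+primidone, 156 ± 11.6 CPM in tamoxifen and 171 ± 27.7 CPM in control uteri (SD, n = 3 each).

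**Figure D4:**
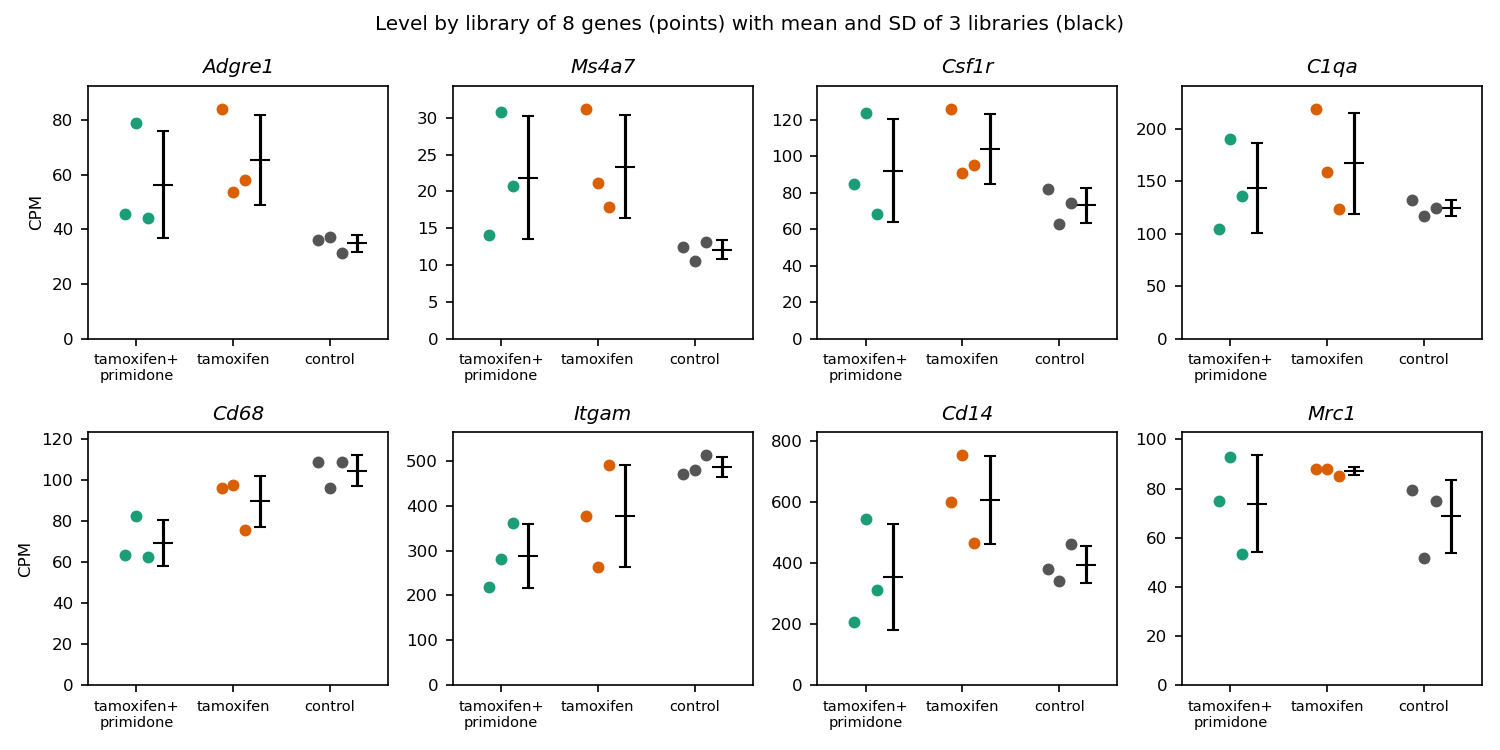
Level in CPM of 8 of the 34 genes in each library (coloured points) with the mean and SD of the 3 libraries of each group (black). For Adgre1 and Ms4a7 the 3 control libraries are the lowest of the 9. Cd68 and Itgam in the lower row have their control libraries above all 3 tamoxifen+primidone libraries.

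The Fc receptors bind antibody, and Fcer1g and Tyrobp are the adaptors, each with an ITAM signalling motif, through which activating Fc receptors and Trem2 signal. In tamoxifen against control 5 of these 6 genes had a positive log2 difference, with a median of 0.40, and 0 passed. Fcgr2b, the inhibitory receptor, had 15.5, 17 and 11 CPM in tamoxifen+primidone uteri, 18.3, 18.5 and 15.9 CPM in tamoxifen uteri and 12.9, 10.5 and 13.4 CPM in control uteri. Tamoxifen libraries all lay above control libraries, and tamoxifen+primidone libraries overlapped with both. The log2 difference of Fcgr2b between tamoxifen and control was 0.52 ± 0.17 (SE, edgeR adjusted p = 0.155). Fcgr1, the high-affinity receptor, averaged 16.7 ± 8.77 CPM in tamoxifen+primidone, 22.4 ± 7.5 CPM in tamoxifen and 15.4 ± 0.806 CPM in control uteri. Fcgr3, an activating receptor, averaged 21.8 ± 5.41 CPM in tamoxifen+primidone, 24 ± 8.94 CPM in tamoxifen and 17.4 ± 2.87 CPM in control uteri (SD, n = 3 each). The Fcgr genes are close relatives, so reads may be split among them.

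Tyrobp encodes DAP12. It had 49.6, 63.1 and 44.5 CPM in tamoxifen+primidone uteri, 58.1, 47.5 and 37.4 CPM in tamoxifen uteri and 43.0, 39.4 and 37.3 CPM in control uteri. Tamoxifen+primidone libraries all lay above control libraries, by 0.39 ± 0.17 on the log2 scale (edgeR adjusted p = 0.196). Fcer1g encodes the common gamma chain. It averaged 23.6 ± 9.65 CPM in tamoxifen+primidone, 27.7 ± 0.834 CPM in tamoxifen and 21.9 ± 1.63 CPM in control uteri. Trem2, a lipid receptor that pairs with DAP12, averaged 15.7 ± 6.33 CPM in tamoxifen+primidone, 20.8 ± 7.64 CPM in tamoxifen and 23.2 ± 7.91 CPM in control uteri (SD, n = 3 each). Trem2 had the lowest mean in tamoxifen+primidone, but its groups overlapped (edgeR adjusted p = 0.415 for tamoxifen+primidone against control).

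C1q, the molecule that starts the classical complement pathway, has 3 chains. Of these, C1qb and C1qc kept nearly fixed proportions, and C1qa varied more against both. C1qa had 105, 190 and 136 CPM in tamoxifen+primidone uteri, 219, 159 and 124 CPM in tamoxifen uteri and 132, 117 and 125 CPM in control uteri. C1qb was at 94.3, 175 and 121 CPM in tamoxifen+primidone uteri, 190, 133 and 127 CPM in tamoxifen uteri and 124, 112 and 101 CPM in control uteri. For both chains the libraries from tamoxifen-fed mice were the more spread, and for all 3 chains tamoxifen replicate 1 and tamoxifen+primidone replicate 2 were the highest of their groups. The log2 differences of C1qa, C1qb and C1qc from control in tamoxifen uteri were 0.42, 0.41 and 0.42, with edgeR adjusted p-values of 0.398, 0.386 and 0.39. Per length, the ratio of C1qb to C1qc in FPKM lay between 0.987 and 1.04 in all 9 libraries. That of C1qa to C1qb lay between 0.997 and 1.26, and that of C1qa to C1qc between 1.04 and 1.25.

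The resident and scavenger receptors include Lyve1, Folr2 and Timd4, which mark long-lived resident macrophages of many mouse tissues, and Mrc1 and Cd163, the mannose and haemoglobin scavenger receptors. In tamoxifen against control 7 of the 8 log2 differences were positive, with a median of 0.36, and 0 passed. Folr2 had 18.1, 16.9 and 8.50 CPM in tamoxifen+primidone uteri, 25.0, 22.8 and 17.0 CPM in tamoxifen uteri and 17.4, 9.66 and 16.7 CPM in control uteri. Its tamoxifen libraries overlapped with both other groups, and the log2 difference of tamoxifen+primidone from tamoxifen was −0.58 ± 0.31 (SE, edgeR adjusted p = 0.453). Msr1, scavenger receptor A, had 2.69, 5.14 and 3.82 CPM in tamoxifen+primidone uteri, 5.29, 7.20 and 4.37 CPM in tamoxifen uteri and 3.76, 3.72 and 4.64 CPM in control uteri. The groups overlapped here too, with a log2 difference of −0.53 ± 0.28 between tamoxifen+primidone and tamoxifen (SE, edgeR adjusted p = 0.442). Reads of Folr2 and Fcgr2b may include those of an overlapping antisense gene.

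Mrc1 was even across the tamoxifen libraries, at 87.0 ± 1.6 CPM, beside 73.8 ± 19.7 CPM in tamoxifen+primidone and 68.7 ± 14.9 CPM in control uteri (SD, n = 3 each). All 3 tamoxifen libraries of Mrc1 lay above all 3 control libraries (edgeR adjusted p = 0.421). Timd4, a phosphatidylserine receptor for dying cells, averaged 2.84 ± 0.989 CPM in tamoxifen+primidone, 2.61 ± 0.365 CPM in tamoxifen and 2.00 ± 0.214 CPM in control uteri. Lyve1, which lymphatic endothelium also expresses, averaged 33.5 ± 2.86 CPM in tamoxifen+primidone, 31.9 ± 2.00 CPM in tamoxifen and 28.4 ± 2.68 CPM in control uteri. Mertk, a receptor kinase for uptake of dying cells, averaged 14.5 ± 0.801 CPM in tamoxifen+primidone, 14.0 ± 1.96 CPM in tamoxifen and 15.1 ± 1.80 CPM in control uteri. Cd163 was at 4.03 ± 2.00 CPM in tamoxifen+primidone, 3.88 ± 0.546 CPM in tamoxifen and 3.68 ± 1.70 CPM in control uteri (SD, n = 3 each). Within the tamoxifen+primidone group replicate 3 was the lowest for 5 of the 8 genes of this role, and within the control group replicate 2 was the lowest for 6 of 8. The same 2 libraries were the lowest of their groups for 8 and 9 of 10 companion genes of resident macrophages, described below.

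Marco, a scavenger receptor known from subsets such as alveolar macrophages, was at a few reads in most libraries. It had 7, 10 and 66 counts in tamoxifen+primidone libraries, 49, 2 and 5 counts in tamoxifen libraries and 1, 2 and 6 counts in control libraries. A single library held most of the reads in each of the groups given tamoxifen, so no fold change is given, and the test did not pass (edgeR adjusted p = 0.365 for tamoxifen against control).

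Of the pattern receptors and integrins, Cd14 had the largest difference between tamoxifen+primidone and tamoxifen. Cd14 was at 207, 544 and 311 CPM in tamoxifen+primidone uteri, 599, 753 and 465 CPM in tamoxifen uteri and 380, 343 and 461 CPM in control uteri. Every tamoxifen library lay above every control library, and 1 tamoxifen+primidone library, replicate 2, lay within the tamoxifen range. The log2 difference was −0.77 ± 0.33 for tamoxifen+primidone against tamoxifen (edgeR adjusted p = 0.343) and 0.62 ± 0.33 for tamoxifen against control (edgeR adjusted p = 0.365). Over the 18 settings the first of these differences lay between −1.23 and −0.50, and it passed in 0 of them.

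Itgam encodes CD11b, the alpha chain of complement receptor 3 on macrophages, monocytes, neutrophils and NK cells. It had 220, 282 and 362 CPM in tamoxifen+primidone uteri, 378, 263 and 490 CPM in tamoxifen uteri and 471, 479 and 513 CPM in control uteri. The control libraries lay close together and above all 3 tamoxifen+primidone libraries, while 1 tamoxifen library lay among the controls. Its log2 difference was −0.76 ± 0.23 for tamoxifen+primidone against control (edgeR adjusted p = 0.0867) and −0.37 ± 0.23 for tamoxifen against control (edgeR adjusted p = 0.434). The first passed in 4 of 18 settings, with adjusted p from 0.00806 to 0.208. In the GENCODE M21 annotation a gene on the same strand overlaps exons of Itgam, so its counts are uncertain. The partner chain Itgb2 was at 46.3 ± 9.95 CPM in tamoxifen+primidone, 48.2 ± 5.75 CPM in tamoxifen and 34.5 ± 4.70 CPM in control uteri (SD, n = 3 each), with an edgeR adjusted p of 0.145 for tamoxifen+primidone against control.

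Itgax encodes CD11c, another partner of Itgb2 that dendritic cells also carry. It averaged 15.3 ± 5.35 CPM in tamoxifen+primidone, 13.7 ± 2.89 CPM in tamoxifen and 13.1 ± 3.21 CPM in control uteri. Cd86, a costimulatory ligand for T cells, averaged 4.71 ± 0.836 CPM in tamoxifen+primidone, 4.53 ± 0.777 CPM in tamoxifen and 3.19 ± 0.714 CPM in control uteri, and its 3 control libraries were the lowest of all 9 (edgeR adjusted p = 0.211 for tamoxifen+primidone against control). The C-type lectins Clec7a, the receptor for fungal glucan, and Clec10a ranged over 5.75 to 16.1 CPM and 6.34 to 13.3 CPM in the 9 libraries. Retnla, a secreted protein induced in alternatively activated mouse macrophages, ranged from 19.8 to 60.6 CPM. For these 3 genes and Itgax the groups overlapped in each comparison.

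Ratios within a library, chosen after the levels were seen and given without a test, set these genes against each other on the FPKM scale. The ratio of Cd68 to Adgre1 was 3.72, 2.80 and 3.79 in tamoxifen+primidone, 3.07, 4.87 and 3.48 in tamoxifen and 8.13, 6.91 and 9.37 in control libraries. All libraries from tamoxifen-fed mice thus had a lower ratio than any control library. This was not confined to Cd68. The ratio of C1qa to Adgre1 was 7.12 to 9.51 in tamoxifen+primidone, 6.58 to 9.13 in tamoxifen and 9.70 to 12.4 in control libraries. The ratios of Mrc1 and of Cd14 to Adgre1 overlapped between tamoxifen and control libraries. For Mrc1 the tamoxifen+primidone libraries overlapped with both other groups as well. For Cd14 the ratio was 9.16 to 14.15 in tamoxifen+primidone, 14.35 to 28.3 in tamoxifen and 18.5 to 29.8 in control libraries. Its tamoxifen+primidone libraries were thus the 3 lowest, narrowly below the lowest tamoxifen library. Adgre1, the divisor in all of these, was itself the lowest in the 3 control libraries. The ratio of Itgam to Itgb2 was 3.31, 3.04 and 5.68 in tamoxifen+primidone, 4.28, 3.62 and 6.84 in tamoxifen and 7.37, 9.09 and 10.3 in control libraries. It too was the highest in the 3 controls. By contrast, the ratio of Csf1 to Csf1r lay between 0.221 and 0.517 over the 9 libraries, and both of these bounds came from tamoxifen libraries.

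**Figure D5:**
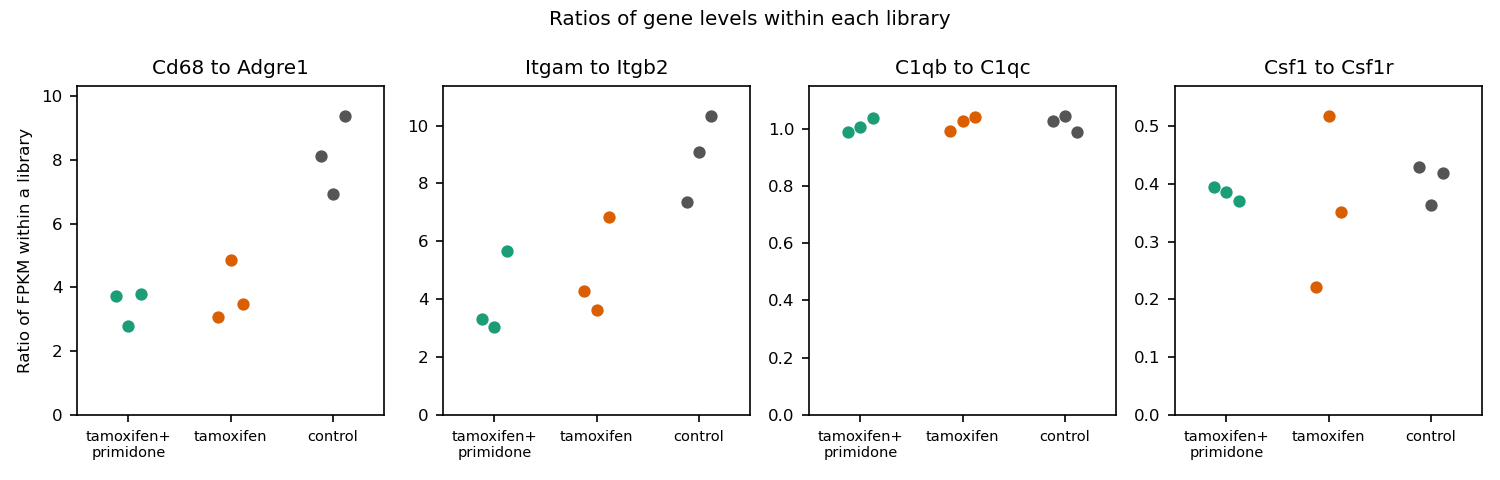
Ratio of the FPKM levels of a pair of genes within each library, with a point per library, for Cd68 to Adgre1, Itgam to Itgb2, C1qb to C1qc and Csf1 to Csf1r. The control libraries are the 3 highest in the first 2 panels, and the ratio of C1qb to C1qc stays between 0.987 and 1.04.

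Genes that work with the members were taken from 8 pathway lists, and in tamoxifen+primidone against tamoxifen 0 genes of any of them passed, against 0.0132% of all genes. Over all genes 1.53% were called in tamoxifen against control (0.573% higher and 0.961% lower). In tamoxifen+primidone against control 5.35% were called (2.14% higher and 3.21% lower). A list of few genes with a single call cannot be told from these shares. Of 14 genes that held Il34, the other ligand of the Csf1 receptor, both GM-CSF receptor chains (Csf2ra and Csf2rb) and 11 transcription factors of the myeloid lineage, 0 passed in tamoxifen against control (median log2 difference 0.21) and 1 in tamoxifen+primidone against control (median 0.0036). That gene was Nr1h3, which encodes the oxysterol receptor LXR alpha, at 11.9 ± 1.61 CPM in tamoxifen+primidone, 9.33 ± 0.507 CPM in tamoxifen and 7.12 ± 0.978 CPM in control uteri. It was higher in tamoxifen+primidone than in control by 0.74 ± 0.16 on the log2 scale (edgeR adjusted p = 0.0311), and it passed in 12 of 18 settings. Of 14 genes of Fc receptor and ITAM signalling, 12 had a positive difference in tamoxifen against control (median 0.35, 0 passed) and 11 a negative one in tamoxifen+primidone against tamoxifen (median −0.17). The phospholipase Plcg2 was lower in tamoxifen+primidone than in control by a log2 difference of −0.48 ± 0.11 (edgeR adjusted p = 0.0401), the single gene of the 14 to pass in that comparison (median 0.19), and in 7 of 18 settings.

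Receptors of the complement system were the pathway genes that passed in tamoxifen against control, where 1.53% of all genes passed. C5ar1, the receptor for the fragment C5a on myeloid cells, was at 5.66, 6.21 and 5.71 CPM in tamoxifen+primidone uteri, 8.86, 9.54 and 5.90 CPM in tamoxifen uteri and 4.05, 2.46 and 4.10 CPM in control uteri. All libraries from tamoxifen-fed mice lay above the controls, and C5ar1 rose in tamoxifen against control by 1.19 ± 0.25 (SE, log2, edgeR adjusted p = 0.0489). That call held in 7 of 18 settings, with adjusted p from 0.000332 to 0.127, and was lost whichever control or tamoxifen library was left out, and also without tamoxifen+primidone replicate 2 or 3. Cd93, which was first described as a C1q receptor and is carried by endothelium as well as by myeloid cells, was at 86.8, 91.6 and 89.5 CPM in tamoxifen+primidone uteri, 99.1, 90.3 and 110 CPM in tamoxifen uteri and 73.1, 60.7 and 67.7 CPM in control uteri. It too had its 3 control libraries below all others, and it rose by 0.57 ± 0.10 in tamoxifen (edgeR adjusted p = 0.024) and by 0.41 ± 0.10 in tamoxifen+primidone against control (edgeR adjusted p = 0.0387), in 13 and 11 of 18 settings. These were the 2 of 8 complement genes that passed in tamoxifen against control (median 0.26) and the 1 of 8 in tamoxifen+primidone against control (median 0.17), with a median of −0.14 in tamoxifen+primidone against tamoxifen.

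In the remaining pathway lists few genes passed. Of 10 genes for uptake of dying cells 0 passed in any comparison, with medians of 0.08 in tamoxifen against control and 0.10 in tamoxifen+primidone against control. Elmo1 and Tyro3 had the smallest p of that list in tamoxifen against control (edgeR adjusted p = 0.175 and 0.279). Of 12 lysosomal proteases and cofactors 0 passed, although 11 had a positive difference in tamoxifen against control (median 0.17) and 11 a negative one in tamoxifen+primidone against tamoxifen (median −0.23). Tamoxifen replicate 1 was the highest of its group for all 12, at a sum of 8374 CPM beside 6301 and 6590 CPM in replicates 2 and 3. The sum was 5192 to 6499 CPM in tamoxifen+primidone and 5829 to 5975 CPM in control libraries. The cathepsin Ctsl was at 475 ± 142 CPM in tamoxifen+primidone, 839 ± 241 CPM in tamoxifen and 377 ± 14.5 CPM in control uteri (SD, n = 3 each, edgeR adjusted p = 0.0505 for tamoxifen against control), and Lamp2 had an edgeR adjusted p of 0.275. Of 10 companion genes of resident macrophages, medians were 0.19 in tamoxifen against control and 0.35 in tamoxifen+primidone against control, and 1 passed in the second of these. It was the carbonyl reductase Cbr2, lower in tamoxifen+primidone by a log2 difference of −0.75 ± 0.18 (edgeR adjusted p = 0.0399, passed in 10 of 18 settings), a gene that other cells than macrophages also express.

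Of the activation lists, 9 of 10 genes of alternative activation and 8 of 10 of classical activation were tested. Alternative activation had medians of 0.14 in tamoxifen against control, −0.59 in tamoxifen+primidone against tamoxifen and −0.34 in tamoxifen+primidone against control. In the last of these 2 genes passed, both lower, against 3.21% of all genes called lower. Arg1 encodes arginase, which alternatively activated macrophages make and other cells make too. It was at 32.7, 33.0 and 82.5 CPM in tamoxifen+primidone uteri, 384, 250 and 232 CPM in tamoxifen uteri and 189, 215 and 228 CPM in control uteri. Every tamoxifen+primidone library lay below every library of the other groups. Arg1 fell in tamoxifen+primidone relative to control by 2.09 ± 0.38 on the log2 scale (edgeR adjusted p = 0.0239), and its difference from tamoxifen was −2.55 ± 0.39 (edgeR adjusted p = 0.0717). The call against control held in 13 of 18 settings, with log2 differences from −2.68 to −1.87. The cytokine signalling inhibitor Socs2 was lower in tamoxifen+primidone than in control by a log2 difference of −0.68 ± 0.16 (edgeR adjusted p = 0.0387). Classical activation had medians of 1.04 in tamoxifen against control, −0.43 in tamoxifen+primidone against tamoxifen and 0.49 in tamoxifen+primidone against control, at a summed level of 7.5 to 28.3 CPM in tamoxifen+primidone, 16.4 to 44.6 CPM in tamoxifen and 11.1 to 12.3 CPM in control libraries, and 0 passed. Nos2 and Tnf had the smallest p of that list in tamoxifen against control.

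Markers of other cells were measured beside the members in 12 lists. Over all genes 1.53% were called in tamoxifen against control and 5.35% in tamoxifen+primidone against control. The 8 pan-leukocyte genes summed to 370 to 499 CPM in tamoxifen+primidone, 403 to 477 CPM in tamoxifen and 336 to 362 CPM in control libraries. All 8 had a positive difference in tamoxifen against control (median 0.49), with 0 passed, and 7 did in tamoxifen+primidone against control (median 0.48), again with 0 passed. Cd37 and Cd53 had the smallest p of this list in tamoxifen against control. For each cell type list below, a pair of medians is for tamoxifen against control first and tamoxifen+primidone against control second. Of the 8 monocyte genes 0 passed in tamoxifen against control (median 0.11), and in tamoxifen+primidone against control (median 0.33) Ace was called lower, by a log2 difference of −0.68 ± 0.14 (edgeR adjusted p = 0.0232). The 8 dendritic cell genes (medians 0.08 and 0.42) and the 6 neutrophil genes tested (medians 1.78 and 1.27) had 0 calls in either comparison with control. Clec9a with Ccr7 and S100a9 with S100a8 had the smallest p in tamoxifen against control. The 7 neutrophil genes found summed to 39.8 to 73.2 CPM in tamoxifen+primidone, 54.8 to 60.2 CPM in tamoxifen and 19.4 to 45.1 CPM in control libraries.

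Lymphocyte genes included calls, beside 0.573% of all genes called higher in tamoxifen and 2.14% in tamoxifen+primidone, each against control. Of 9 T and NK cell genes Il2rb was called higher in tamoxifen (log2 difference 0.94 ± 0.17, edgeR adjusted p = 0.0324), and Il2rb and Nkg7 in tamoxifen+primidone (1.21 ± 0.17 and 1.60 ± 0.26, edgeR adjusted p = 0.00789 and 0.0108), each against control. The medians of this list were 0.97 and 1.00. Of the 7 B and plasma cell genes tested, with medians of 0.48 and 0.50, Mzb1 was called higher in both groups against control (edgeR adjusted p = 0.042 in tamoxifen and 0.0261 in tamoxifen+primidone). The 6 mast cell genes tested had medians of −1.36 and −0.34, and the proteases Mcpt4 and Tpsb2 were lower in tamoxifen than in control by log2 differences of −2.04 ± 0.33 and −2.04 ± 0.39 (edgeR adjusted p = 0.0236 and 0.0351). Of the 6 genes, 4 were lower and 2 higher in tamoxifen than in control, with log2 differences up to 1.67. The 8 listed genes summed to 44.8 to 55.5 CPM in tamoxifen and 34.9 to 42.1 CPM in control libraries. In tamoxifen+primidone libraries that sum was 26.7 to 139 CPM. The 4 eosinophil genes tested (medians 1.04 and 1.09) and 6 lymphatic endothelial genes (medians −0.25 and 0.14) had 0 calls, with Siglecf and Prg2 and with Mmrn1 and Reln as those of smallest p in tamoxifen against control.

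Genes of liver were also read. Clec4f, which defines Kupffer cells, was between 0 and 0.101 CPM in the 9 libraries, and of that list Vsig4 and Slc40a1 had the smallest p, with medians of −0.29 and −1.57 and 0 calls. Of 8 hepatocyte genes 4 were called higher in tamoxifen (Alb, Apoa1, Ttr and Ahsg) and 6 in tamoxifen+primidone (the same with Apoa2 and Fgb), each against control, with medians of 1.13 and 1.75. Over all genes 0.573% and 2.14% were called higher in these comparisons. The summed level of the hepatocyte genes was 201 to 243 CPM in tamoxifen+primidone, 104 to 205 CPM in tamoxifen and 62.4 to 86.7 CPM in control libraries. Of 6 genes of uterine identity (medians −0.18 and 0.14) only Myh11, the smooth muscle myosin, was called, lower in tamoxifen+primidone than in control by a log2 difference of −0.69 ± 0.16 (edgeR adjusted p = 0.0357). These genes summed to 1932 to 2357 CPM in tamoxifen+primidone, 1878 to 2241 CPM in tamoxifen and 2451 to 3085 CPM in control libraries. A sum does not show the level of each gene. In these 12 lists, as in the 8 above, 0 genes were called between tamoxifen+primidone and tamoxifen in the main edgeR fit. For this comparison the lists were not read under the other settings. The share of a list with an unadjusted p below 0.05 ran from 0% to 55.6% (alternative activation), against 13.8% of all genes. Of the calls in all these lists, those of Il2rb, Alb, Apoa1 and Ahsg in tamoxifen+primidone against control passed in 18 of 18 settings, and each of the others was lost without control replicate 1.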

How the data were processed

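Whole-uterus RNA of 9 mice, 3 per group, was sequenced, and libraries were assigned to groups by their labels. Per the submitters' processing notes, the tools were HISAT2, HTSeq, DESeq2 and R 3.2.0, and the build was GRCm39. Neither the gene annotation nor the strand setting is given in the sources used here. Raw read counts by gene symbol, not normalized, and FPKM values of the same genes were deposited by the authors.

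The counts were fitted in R 4.3.3 with edgeR 4.0.16 (quasi-likelihood, robust, TMM factors, default low-count filter by group), with all 9 libraries in a single fit and Benjamini-Hochberg adjustment over 15186 genes. The procedure was tested on simulated data. Tests were two-sided, and the standard error is the size of the log2 fold change over the root of the F statistic. DESeq2 1.42.0 and limma 3.58.1 (on log2(FPKM + 1)) served as alternatives. The common biological coefficient of variation was 0.203. FPKM served for levels between genes, within-library ratios and the limma settings. Replicates of a group differed beyond counting noise (chi-square per degree of freedom 19.6 to 78.5), so none was counted as a repeat.

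The members, the 8 pathway lists and the 12 cell type lists were chosen with earlier results of these data known. Values per library are given for members that passed, the 5 with the smallest p in each comparison, the 5 with the highest FPKM, and Csf1 and Csf1r. Of each other list, genes that passed are named, and where none did the 2 with the smallest p in tamoxifen against control. Marco, Itgb2, C5ar1, Cd93 and Arg1 are given per library or in more detail outside this rule, after their values were seen. Promoters come from RefSeq (GRCm38.p6). Overlapping genes were looked up by name in GENCODE M21, of another build than the counts, so no coordinates were taken from it. A result of the monocyte list is not reported here.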

Additional observations from a re-analysis of the deposited data

How the results depend on the processing

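The alternatives include fits with a library left out. The 15 gene results recomputed under them were the 5 members with the smallest p in each comparison. Among these, picked from the same data, 0 reversed in any. They kept their side of the threshold 235 times, newly passed it 12 times and lost it 8 times. Of all 34 members, as few as 30 kept their sign in tamoxifen against control. As few as 23 did in tamoxifen+primidone against tamoxifen and 22 in tamoxifen+primidone against control. DESeq2 called 2 of the 34 genes in tamoxifen against control, 4 in tamoxifen+primidone against control and 4 for any difference, with 1112, 1882 and, in tamoxifen+primidone against tamoxifen, 578 calls over all genes in pairwise comparisons, against 233, 812 and 2 in edgeR. Fitted on only the 2 groups compared, edgeR called 2 members in tamoxifen against control (Adgre1 and Ms4a7, with 546 calls over all genes) and 2 in tamoxifen+primidone against control (Cd68 and Itgam). This fit could not be run for the F test. In tamoxifen+primidone against tamoxifen the calls over all genes were 9 with DESeq2-style size factors, 21 without the low-count filter, 53 with the replicate block, and 1, 1 and 0 with limma on log2(FPKM + 1), log2(FPKM + 0.1) and without a filter. Limma called 0 members in tamoxifen+primidone against control in all 3 settings, where Cd68 had adjusted p-values of 0.0513, 0.0515 and 0.0736, and without a filter it called 143 genes in tamoxifen against control. Its calls in tamoxifen+primidone against control split into 626 higher and 321 lower, against 325 and 487 in edgeR.

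Whether replicate numbers pair the samples could not be settled with 3 libraries per group. Correlations of same-numbered libraries ran from −0.15 to 0.25 and those of differently numbered ones from −0.35 to 0.20. Calls over all genes with the replicate block were 317 in tamoxifen against control, 53 in tamoxifen+primidone against tamoxifen and 984 in tamoxifen+primidone against control. Without it they were 233, 2 and 812. With the replicate block, tamoxifen+primidone against control gave 2 called members, Cd68 and Itgam. With a single library left out, called members ran from 0 to 1 in tamoxifen against control (Adgre1, without tamoxifen+primidone replicate 2), from 0 to 0 in tamoxifen+primidone against tamoxifen, from 0 to 2 in tamoxifen+primidone against control and from 0 to 2 for any difference. Calls over all genes then ran from 22 to 439, 0 to 85 and 122 to 800 in the 3 pairwise comparisons. The members' median ran from 0.20 to 0.44 in tamoxifen against control, from −0.36 to 0.03 in tamoxifen+primidone against tamoxifen and from −0.057 to 0.35 in tamoxifen+primidone against control, with both low bounds of the last 2 reached without tamoxifen+primidone replicate 2. Without tamoxifen+primidone replicate 1, Ms4a7 was called in place of Cd68. Where the cause of a moved count is not the smaller number of libraries or genes, the cause was not tested.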
